A study of Mus musculus with 6 samples.

Results

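Macrophage identity and lysosome genes were read in wire-injured carotid arteries of mice lacking IRF4 and of wild-type mice. The group held 31 genes, chosen by name for their known roles in macrophages and in the lysosome and with earlier results of these data known; all 31 were measured among the 18194 genes of the table. RNA came from carotid arteries taken 14 days after a wire injury, an operation in which a wire strips the endothelium and a neointima then forms. The IRF4 KO group carried a knockout of Irf4 in all tissues, and the other group is labelled WT; each held 3 arrays, with 3 to 5 vessels pooled per array from 400 ng of total RNA. Every artery of both groups had been injured, and no uninjured artery was analysed here. The labels give no strain, sex, age or deleted exon, and they call the 3 arrays of a genotype biological replicates. Values are log2 intensities of probe sets, arrays are named by genotype and replicate number, and each difference is the IRF4 KO value less the WT value in log2 units.

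Macrophages enter an injured artery as monocytes or expand from resident cells, and they clear debris by engulfing it. Their survival depends on the receptor for colony-stimulating factor 1, and their phagocytic receptors signal through small adaptors that carry an immunoreceptor tyrosine-based activation motif (ITAM). Engulfed material reaches the lysosome, where cathepsins and other acid hydrolases degrade it. Several cathepsins also occur in smooth muscle cells and fibroblasts, whereas CD45 and the ITAM adaptors are largely limited to blood cell lineages. In macrophages IRF4 is known for its part in alternative activation and binds DNA together with PU.1, a lineage factor of myeloid cells.

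IRF4 KO 1 and WT 3 stood apart from the other 4 arrays before any genotype was compared. Their poly-A spike-in controls, bacterial RNAs spiked in ahead of labelling, averaged 5.14 and 4.93, against 7.35 to 9.26 in the others. The cartilage collagen Col2a1 read 12.16 and 12.07 in these arrays, against 3.75 to 5.15 elsewhere. The 3' probe set of Gapdh exceeded its 5' probe set by 1.52 to 2.24 in the IRF4 KO arrays. In WT 1, WT 2 and WT 3 it did so by 3.35, 1.59 and 3.36. This sign of RNA quality differed within WT and was largest in WT 1 and WT 3. It did not separate IRF4 KO 1 and WT 3 from the other 4 arrays. Xist read 8.24 in WT 3 and 3.75 to 4.67 in the other 5 arrays. The smooth muscle myosin Myh11 read 11.65 to 12.30 in IRF4 KO and 11.44 to 12.22 in WT, a level fitting the labelled artery. Both Irf4 probe sets were dim and overlapped between the genotypes, with 3.27, 3.75 and 3.70 in IRF4 KO and 3.90, 3.64 and 3.38 in WT on the brighter one, so they did not check the genotype labels.

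The macrophage genes were mostly high in these same 2 arrays, 1 of each genotype. Both arrays were already known to read high, and the members were chosen with earlier results known. The shares given here are therefore a description and no test. In 25 of the 31 members (80.6%) IRF4 KO 1 and WT 3 both read above each of the other 4 arrays, an order found in 17.4% of all genes. The range over the 6 arrays exceeded 2 log2 units in 21 members (67.7%) and in 2.69% of all genes. Its median was 3.06 over the members and 0.754 over all genes, and it ran from 0.49 for the scavenger receptor gene Msr1 to 6.14 for the protease gene Ctss. The mean deviation of the members from their own 6-array means was 1.83 in IRF4 KO 1 and 1.06 in WT 3, and -0.886 to -0.483 in the others. In whole pieces of artery, fewer macrophages and less of a transcript per macrophage cannot be told apart.

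**Figure D1:**
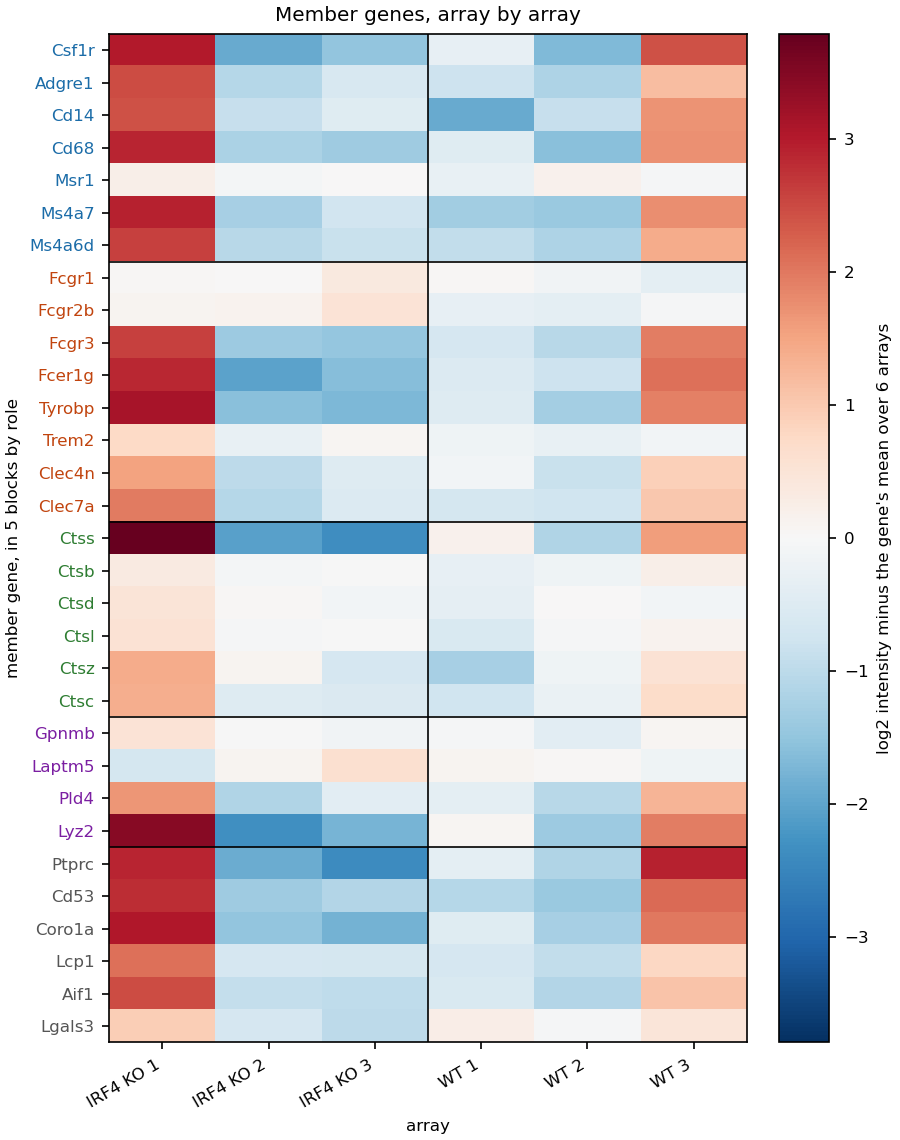
Log2 intensity of each of the 31 members minus its mean over the 6 arrays, by array (columns, IRF4 KO left of WT), in 5 blocks by role (rows, coloured names: surface molecules, Fc and ITAM receptors, cathepsins, other lysosomal proteins, leukocyte genes). IRF4 KO 1 and WT 3 are the 2 highest columns in 25 of 31 rows, the exceptions being Msr1, Fcgr1, Fcgr2b, Trem2, Ctsd and Laptm5.

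Promoters of the members were searched, as a description only, for letters bound by factors of the macrophage lineage. RefSeq promoter windows (build GRCm38.p6, 250 bases before to 50 after a start) were held for 23 of the 31 members and for 27025 genes in all, and both strands were searched; those of Adgre1, Cd14, Clec4n, Csf1r, Ctsb, Ms4a6d, Msr1 and Tyrobp were not used here. GAGGAA, a core bound by PU.1, occurred in 13 of the 23 members (56.5%) and in 31.3% of all genes. A composite element bound by PU.1 together with IRF4 or IRF8, GGAA followed after any 2 bases by GAAA, occurred in 3 members, Cd68, Clec7a and Fcgr2b (13%), and in 3.16% of all genes; it can share its GGAA with the PU.1 core. CACGTG, the core of the element through which TFEB and its relatives act on lysosomal genes, occurred in Ctsd and Ctsl (8.70%) and in 8.09% of all genes. The windows of genes with several starts all count, and the presence of letters is a description, not a binding site. The 250 bases before the start are printed for the 3 genes with the composite letters, for Ctss, whose range over the arrays was widest, and for Ctsd, whose range was narrow; the last 2 were chosen after their values were seen. Capitals mark GAGGAA, the composite (read on the opposite strand in Clec7a and Fcgr2b) and CACGTG; the composite of Cd68 lies after the start and is not shown.
Cd68, chr11:69666171-69666420, minus strand: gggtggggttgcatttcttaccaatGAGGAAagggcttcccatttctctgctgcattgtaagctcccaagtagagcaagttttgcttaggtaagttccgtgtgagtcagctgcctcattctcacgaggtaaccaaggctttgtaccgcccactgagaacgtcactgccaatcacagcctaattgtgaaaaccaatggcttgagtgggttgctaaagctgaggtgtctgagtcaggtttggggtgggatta
Clec7a, chr6:129472780-129473029, minus strand: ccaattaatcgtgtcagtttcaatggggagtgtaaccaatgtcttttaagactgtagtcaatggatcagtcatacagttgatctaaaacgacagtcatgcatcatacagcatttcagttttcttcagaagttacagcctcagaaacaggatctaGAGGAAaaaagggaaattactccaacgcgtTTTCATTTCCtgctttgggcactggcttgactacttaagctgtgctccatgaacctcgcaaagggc
Fcgr2b, chr1:170976072-170976321, minus strand: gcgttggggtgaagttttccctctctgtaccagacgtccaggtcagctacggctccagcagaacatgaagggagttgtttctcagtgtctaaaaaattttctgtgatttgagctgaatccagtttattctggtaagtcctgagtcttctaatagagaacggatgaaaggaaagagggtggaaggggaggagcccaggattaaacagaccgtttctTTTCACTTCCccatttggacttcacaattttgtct
Ctss, chr3:95526536-95526785, plus strand: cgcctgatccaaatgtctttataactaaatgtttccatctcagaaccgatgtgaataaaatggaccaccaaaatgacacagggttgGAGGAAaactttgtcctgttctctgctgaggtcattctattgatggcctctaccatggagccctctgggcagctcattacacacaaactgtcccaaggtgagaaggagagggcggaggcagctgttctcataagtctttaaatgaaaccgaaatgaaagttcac
Ctsd, chr7:142387828-142388077, minus strand: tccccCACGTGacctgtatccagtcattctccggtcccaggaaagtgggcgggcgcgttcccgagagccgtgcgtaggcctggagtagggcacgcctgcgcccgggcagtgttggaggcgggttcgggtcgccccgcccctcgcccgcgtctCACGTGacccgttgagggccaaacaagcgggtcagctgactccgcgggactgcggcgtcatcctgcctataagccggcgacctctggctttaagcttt
In Ctss the PU.1 core begins 164 bases before the start, and in Ctsd CACGTG begins 245 and 98 bases before it. The composite ends 57 bases before the start in Clec7a and 26 bases before it in Fcgr2b.

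The main comparison asks whether macrophage and lysosome genes differ between IRF4 KO and WT arteries. Over the 6 arrays none of the 31 members passed limma's test at an adjusted p under 0.05, and the lowest adjusted p among them was 0.999. Over all genes 0 of 18194 passed (0.0%). At an unadjusted limma p under 0.05, 1 member (Fcgr2b) read higher in IRF4 KO and 0 read lower, set beside 0.407% and 1.08% of all genes. Differences ran from -0.93 to 0.73, with 22 members higher and 9 lower in IRF4 KO, a median of 0.218 against -0.00155 over all genes, and a median standard error (SE) of 0.789 against 0.233. The median SD within a genotype was 1.63 in IRF4 KO and 1.14 in WT for the members, and 0.275 and 0.255 for all genes. Leaving out single arrays moved the members' median difference between -0.669 (without IRF4 KO 1) and 0.623 (without WT 3).

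The comparison was repeated over the 4 arrays with high spike-in levels, IRF4 KO 2 and 3 against WT 1 and 2. Here 16 members were lower and 15 higher in IRF4 KO, with a median difference of -0.0014 (0.00107 over all genes). Within this even balance 8 members read lower in both IRF4 KO arrays than in both WT arrays and had an unadjusted limma p under 0.05, namely Fcgr3, Fcer1g, Tyrobp, Ctss, Lyz2, Ptprc, Coro1a and Lgals3. These were 25.8% of the members; of all genes, 15.7% showed no overlap in that direction and 2.84% had such a p. In the other direction 4 members did not overlap (Ms4a7, Fcgr2b, Ctsb and Ctsl; 12.9%, against 14.1% of all genes), and 1 of them, Fcgr2b, had an unadjusted limma p under 0.05 (1.03% of all genes). None of the 31 passed limma's adjusted threshold, which 5 genes in all (0.0275%) passed, and the lowest adjusted p among the members was 0.297. With 2 arrays per genotype these p-values rest on a spread borrowed across genes, and Ctss and Ptprc passed with trended, robust variances, a setting chosen after seeing the data.

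Between the 2 arrays left out, most members read higher in IRF4 KO. IRF4 KO 1 read above WT 3 in 29 of 31 members and in 9124 of all 18194 genes. In 10 members it did so by more than 2-fold (32.3%, against 0.819% of all genes). It read below WT 3 in Laptm5 (-0.50) and Ptprc (-0.02). No member was more than 2-fold lower, as 1.27% of all genes were. In 15 members (48.4%) IRF4 KO was higher in this pair and lower in the other 4 arrays, a pattern seen in 23.9% of all genes. This pair has no replicates and therefore no test of its own. Its arrays also differed in Xist, at 3.75 in IRF4 KO 1 and 8.24 in WT 3. The labels give no sex, and its part in the differences of this pair was not tested.

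**Figure D2:**
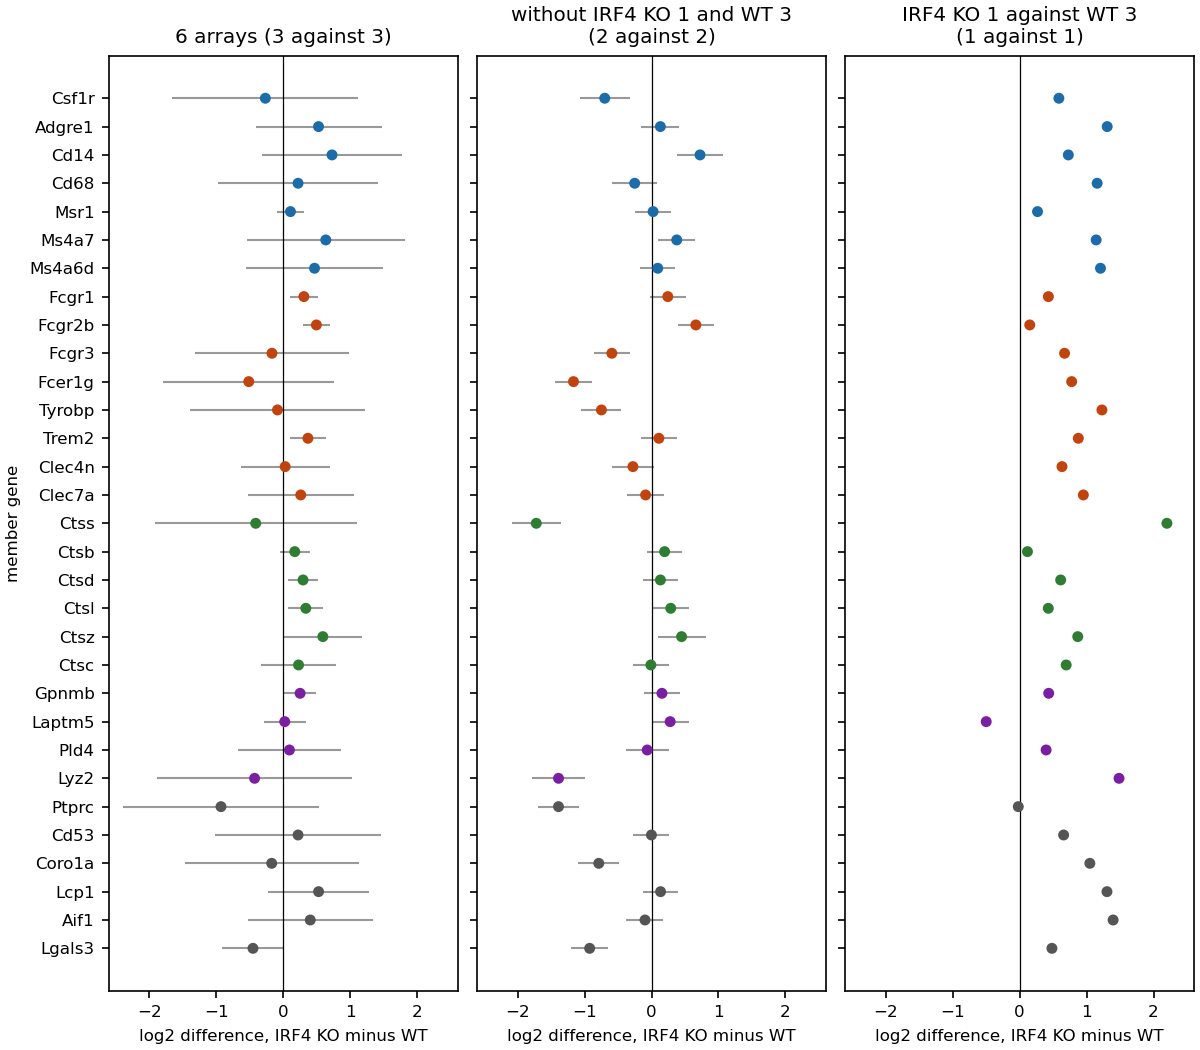
Log2 difference, IRF4 KO minus WT, of each member over all 6 arrays (left), over 4 arrays without IRF4 KO 1 and WT 3 (middle) and between IRF4 KO 1 and WT 3 (right); bars are moderated standard errors, and the pair has none. Ctss, Lyz2, Ptprc and Fcer1g lie at or below -1.17 in the middle panel, and 29 of 31 members lie above 0 on the right.

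Among 7 lineage receptors and surface molecules, all but Msr1 had both high arrays on top. Csf1r, the receptor that keeps macrophages alive, read 10.30, 5.40 and 5.82 in IRF4 KO and 6.99, 5.63 and 9.72 in WT. The genotypes overlapped, and WT 1 lay above the 3 lowest arrays. Adgre1, an adhesion receptor that marks mouse macrophages, read 8.07, 4.51 and 4.98 in IRF4 KO and 4.81, 4.43 and 6.76 in WT. Cd14, the lipopolysaccharide co-receptor, read 7.85, 4.54 and 4.98 in IRF4 KO and 3.51, 4.56 and 7.12 in WT. In WT 1 it was the lowest of the 6 arrays, unlike Csf1r, and over the 4 arrays it differed by 0.72 (SE 0.34, limma adjusted p = 0.999). Cd68, a lysosomal membrane glycoprotein used as a macrophage stain, read 7.22, 3.15 and 2.98 in IRF4 KO and 3.88, 2.76 and 6.06 in WT. Ms4a7 and Ms4a6d, tetraspan membrane proteins of macrophages, had ranges of 4.32 and 3.77 and read 1.14 and 1.21 higher in IRF4 KO 1 than in WT 3. The scavenger receptor Msr1 was near even on the probe set used, at 4.94, 4.65 and 4.73 in IRF4 KO and 4.45, 4.88 and 4.68 in WT. None of the 7 genes passed limma's test over the 6 or the 4 arrays.

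Of 8 Fc receptors, lectins and ITAM adaptors, 5 read lower in IRF4 KO over the 4 arrays, and Fcer1g, Tyrobp and Fcgr3 did so without overlap. Fcer1g, the ITAM-bearing gamma chain shared by Fc receptors, read 8.35, 3.45 and 3.87 in IRF4 KO and 4.96, 4.69 and 7.57 in WT. Both lower IRF4 KO arrays lay under every WT array, a difference of -1.17 over the 4 arrays (SE 0.27, limma adjusted p = 0.352), or 2.24-fold lower in IRF4 KO. Tyrobp, the adaptor DAP12 that serves TREM2, read 9.11, 4.40 and 4.27 in IRF4 KO and 5.47, 4.69 and 7.88 in WT, with a 4-array difference of -0.75 (SE 0.30, limma adjusted p = 0.999). Fcgr3, a low-affinity activating IgG receptor, read 7.64, 3.66 and 3.58 in IRF4 KO and 4.43, 4.003 and 6.97 in WT; both lower IRF4 KO arrays were again under every WT array. The C-type lectins Clec4n (dectin-2) and Clec7a (dectin-1), receptors for fungal sugars, differed by -0.28 and -0.09 over the 4 arrays and by 0.63 and 0.95 in the pair. Trem2, a lipid-sensing receptor, read 5.71 in IRF4 KO 1 and 4.66 to 5.02 in the other 5 arrays, so WT 3 at 4.84 was not high. Fcgr1, the high-affinity IgG receptor, read 5.43, 5.39 and 5.74 in IRF4 KO and 5.43, 5.22 and 5.00 in WT.

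Fcgr2b, the inhibitory IgG receptor, was the 1 member whose genotypes did not overlap over the 6 arrays, a share of 3.23%. Without overlap, IRF4 KO read above WT in 2.37% of all genes and below it in 3.31%. It read 7.88, 7.90 and 8.29 in IRF4 KO and 7.46, 7.41 and 7.73 in WT, a difference of 0.49 (SE 0.20, limma adjusted p = 0.999). Its other probe sets did not repeat this, since the next brightest read 5.79, 4.82 and 5.50 in IRF4 KO and 4.74, 4.72 and 5.54 in WT. A dimmer one read 7.74, 2.98 and 2.91 in IRF4 KO and 2.62, 2.82 and 7.40 in WT and so followed the 2 high arrays. Fcgr2b and Fcgr3 are close paralogs whose transcripts some probes may share, and the separation of their signals was not tested.

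Among the cathepsins 1 gene varied far more than the rest. Ctss, cathepsin S, a cysteine protease of antigen-presenting cells that trims the invariant chain of MHC class II, read 11.07, 5.22 and 4.93 in IRF4 KO and 7.45, 6.14 and 8.87 in WT. The IRF4 KO arrays held both the highest value and the 2 lowest, and the genotype means were 7.07 ± 3.46 in IRF4 KO and 7.49 ± 1.37 in WT (SD, n = 3). Over the 4 arrays Ctss was 3.30-fold lower in IRF4 KO, a log2 difference of -1.72 (SE 0.36, limma adjusted p = 0.297), while IRF4 KO 1 was 4.59-fold above WT 3. Leaving out 1 of the 4 arrays moved that difference between -2.38 and -1.07. The aspartic protease Ctsd read 10.10, 9.66 and 9.49 in IRF4 KO and 9.27, 9.61 and 9.48 in WT, and WT 3 was not high. The cysteine protease Ctsb read 10.86, 10.43 and 10.51 in IRF4 KO and 10.21, 10.34 and 10.74 in WT. Ctsl, cathepsin L, read 9.87, 9.29 and 9.31 in IRF4 KO and 8.75, 9.27 and 9.44 in WT. These 3 genes had ranges of 0.82, 0.65 and 1.12 over the 6 arrays. Ctsz and Ctsc, 2 cathepsins that remove single residues or dipeptides from protein ends, lay between. Their ranges were 2.67 and 2.13, and their 4-array differences were 0.45 and -0.01. Other Ctsz probe sets gave -0.49 and -0.02 over the 4 arrays, so the sign for Ctsz depended on the probe set.

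Of 4 other lysosomal and granule genes, 3 had both high arrays on top. Lyz2, lysozyme M, an enzyme of macrophages and granulocytes that cleaves bacterial cell walls, read 10.43, 4.68 and 5.23 in IRF4 KO and 7.07, 5.62 and 8.95 in WT. It was 2.62-fold lower in IRF4 KO over the 4 arrays (-1.39, SE 0.39, limma adjusted p = 0.676) and 1.48 log2 units higher in IRF4 KO 1 than in WT 3. Mice carry a near-identical gene, Lyz1, and probe signals of the pair may be shared. Pld4, an exonuclease of endolysosomes, read 5.98, 3.18 and 3.90 in IRF4 KO and 3.95, 3.26 and 5.58 in WT. Gpnmb, a glycoprotein of lysosome-stressed macrophages, read 5.41, 4.89 and 4.78 in IRF4 KO and 4.86, 4.50 and 4.98 in WT, close to even. The probe set used for Laptm5, a lysosomal membrane protein of blood cells, ran the other way, at 5.46, 6.23 and 6.75 in IRF4 KO and 6.25, 6.18 and 5.96 in WT.

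All 6 leukocyte genes had both high arrays on top. Ptprc, which encodes CD45, the phosphatase on all nucleated blood cells, read 7.68, 2.90 and 2.40 in IRF4 KO and 4.43, 3.65 and 7.70 in WT. Over the 4 arrays it was 2.62-fold lower in IRF4 KO (-1.39, SE 0.31, limma adjusted p = 0.340), whereas IRF4 KO 1 and WT 3 differed by -0.02. Coro1a, an actin regulator of leukocytes, read 7.69, 3.15 and 2.86 in IRF4 KO and 4.18, 3.40 and 6.64 in WT. Cd53, a leukocyte tetraspanin, read 7.29, 3.14 and 3.37 in IRF4 KO and 3.41, 3.10 and 6.64 in WT, and its 4-array difference was -0.0014 with an SE of 0.27. Lcp1 and Aif1, actin-bundling proteins of macrophages (L-plastin and IBA1), had ranges of 3.00 and 3.58, with 4-array differences of 0.14 and -0.10; a second Lcp1 probe set gave -0.73. Lgals3, galectin-3, which macrophages and injured smooth muscle cells both make, read 9.91, 8.32 and 7.97 in IRF4 KO and 9.21, 8.93 and 9.43 in WT. Its 4-array difference was -0.92 (SE 0.27, limma adjusted p = 0.713), or 1.90-fold lower in IRF4 KO.

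**Figure D3:**
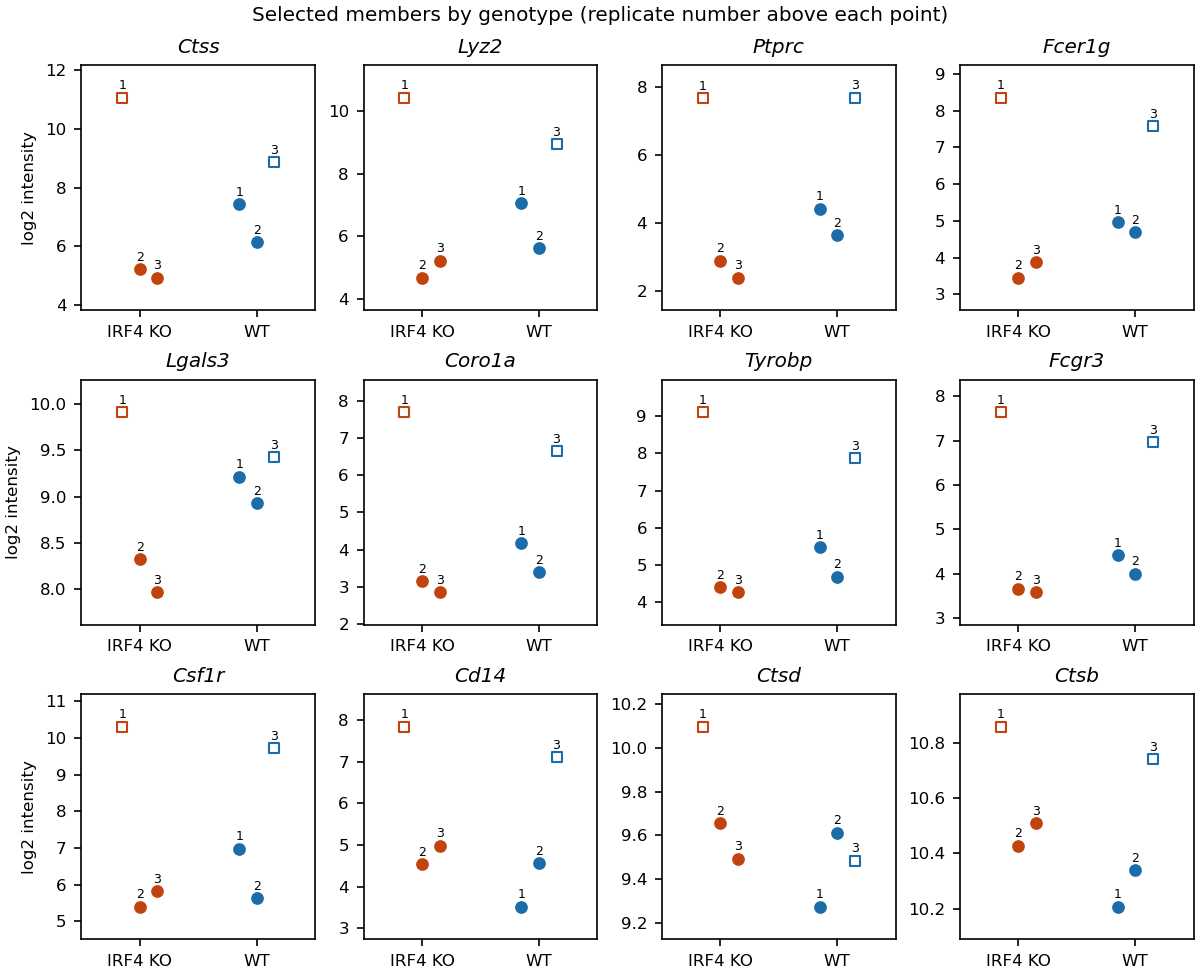
Log2 intensity of 12 members by array (IRF4 KO left, WT right; number above each point is the replicate; open squares are IRF4 KO 1 and WT 3). In Ctss, Lyz2, Ptprc, Fcer1g, Lgals3, Coro1a, Tyrobp and Fcgr3 the filled IRF4 KO points lie below both filled WT points; Csf1r, Cd14, Ctsd and Ctsb, drawn for contrast and chosen after their values were seen, overlap or lie the other way.

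Whether the genotype difference in the low spike-in pair departed from that in the other 4 arrays was tested with an interaction term over all 6 arrays. The lone arrays IRF4 KO 1 and WT 3 were assumed to vary like the others. With 1 such array per genotype, the term cannot be tied to the spike-in level itself. Ctss was the 1 member of 31 that passed (3.23%), with 15 of all genes passing (0.0824%). Its IRF4 KO minus WT difference was 3.92 log2 units larger in the low spike-in pair than in the other 4 arrays (SE 0.63, limma adjusted p = 0.0479). Without IRF4 KO 2 or IRF4 KO 3 that adjusted p was 0.263 and 0.454, and the difference was 4.06 and 3.78; with the mean of all probe sets per gene the adjusted p was 0.102. Ctss has 1 probe set, so averaging probe sets left its own values unchanged, and its adjusted p moved through the other genes. Lyz2 (2.87, limma adjusted p = 0.372), Tyrobp (1.98, 0.569) and Fcer1g (1.94, 0.421) had the next largest terms and did not pass. At an unadjusted limma p under 0.05, 14 members (45.2%) had a positive term, against 1.95% of all genes. Spike-in level moved with cartilage genes and with the macrophage genes alike, and its part in the difference was not tested. Of the other genes that passed, chosen after their values were seen, Cd74 and H2-Ab1, of the MHC class II pathway in which cathepsin S acts, had terms of 3.37 and 4.34 (limma adjusted p = 0.0221 and 0.0479). Cd74 read 9.15, 5.48 and 5.12 in IRF4 KO and 7.92, 7.43 and 8.15 in WT. Cd74 and H2-Ab1 were also among the 5 genes that passed the genotype comparison over the 4 arrays. Their differences there were -2.37 and -3.30 (limma adjusted p = 0.0042 and 0.0063). Genes outside that pathway passed with terms larger in size, among them Xist (-4.84) and Dbp (5.19), also chosen after their values were seen. Dbp read 8.88, 4.48 and 3.54 in IRF4 KO and 6.60, 5.86 and 5.91 in WT.

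The choice of probe set decided how some members read. The 31 members had 65 probe sets, and 18 genes had more than 1. In 4 genes, Fcgr1, Fcgr2b, Laptm5 and Msr1, the brightest probe set did not place both IRF4 KO 1 and WT 3 on top, and another did. A dimmer probe set of Laptm5 read 7.57, 2.31 and 2.40 in IRF4 KO and 3.76, 2.59 and 6.69 in WT, where the brightest had IRF4 KO 1 lowest of all. A dimmer set of Fcgr1 read 4.69, 2.84 and 2.93 in IRF4 KO and 2.89, 2.67 and 3.55 in WT. Counting any probe set, 29 of the 31 members had both arrays on top, the exceptions being Trem2 and Ctsd. A gene with several probe sets has more occasions to meet this looser rule, and its share over all genes was not counted. Of the 65 probe sets taken singly, 47 had both arrays on top. Lcp1 had 2 probe sets of nearly equal brightness (means 4.70 and 4.65), and the second read 8.18, 2.67 and 2.84 in IRF4 KO and 3.72, 3.25 and 7.26 in WT. Over the 4 arrays it was lower in IRF4 KO without overlap, where the brighter one overlapped. In Ctsb the reverse held for the 2 high arrays, since its brightest probe set had both arrays on top and its other 4 did not. Of the brightest probe sets, 12 lay at or below the median of all gene means (4.89), where RMA compresses differences.

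**Figure D4:**
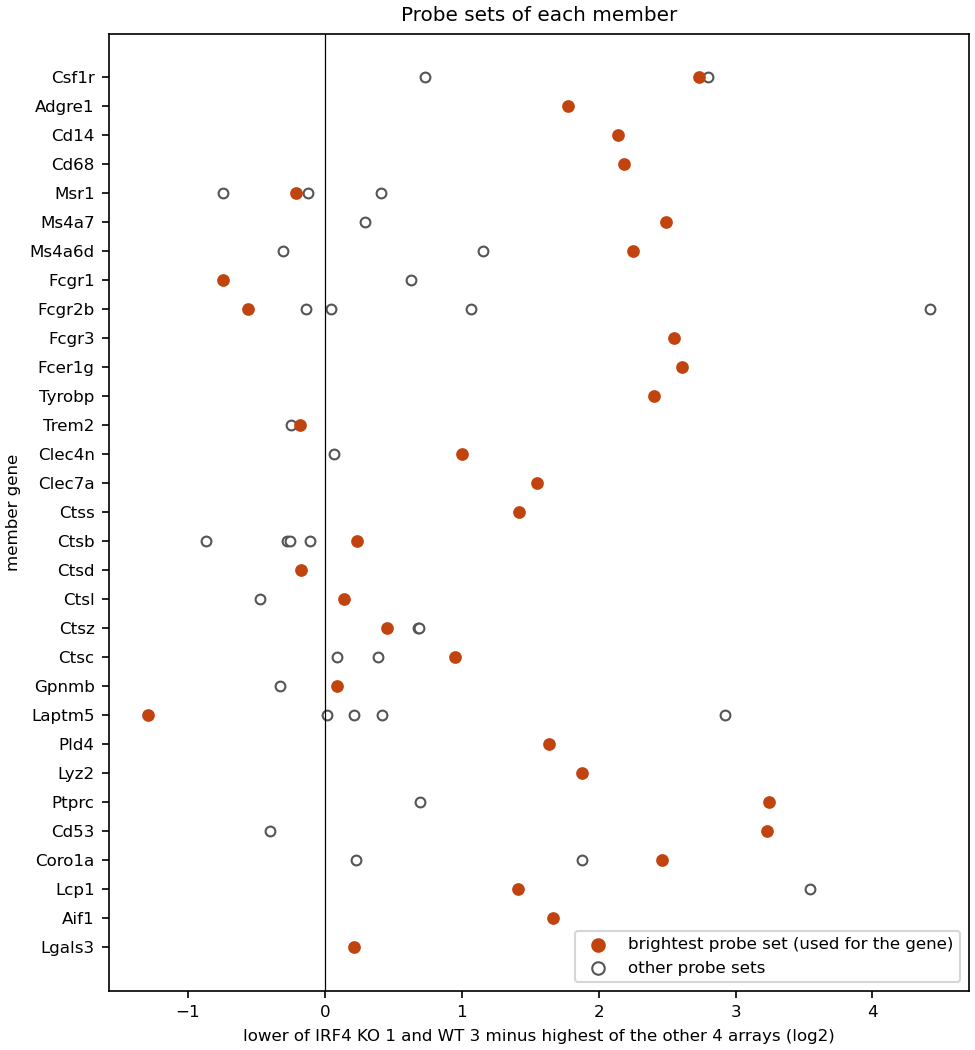
For each probe set of each member, the lower of IRF4 KO 1 and WT 3 minus the highest of the other 4 arrays, in log2 units; above 0 both arrays lie on top. Filled points are the probe sets used for the genes, and open points the other probe sets; Fcgr1, Fcgr2b, Laptm5 and Msr1 have a filled point below 0 and an open point above it.

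Other genes of the pathway were read from fixed lists, and none of their genes passed limma's adjusted threshold over the 6 or the 4 arrays. The 25 other lysosome genes measured had a median range of 0.859 over the 6 arrays, against 3.06 for the members and 0.754 for all genes, and in 2 of them, Gusb and Lgmn, it exceeded 2 log2 units (2.37 and 2.02). Gusb and Lgmn, which encode beta-glucuronidase and legumain, were named for this after their values were seen. The list's mean deviations were 0.445 in IRF4 KO 1, -0.309 to -0.0957 in IRF4 KO 2 and 3, and -0.194 to 0.216 in WT. IRF4 KO 1 and WT 3 were both on top in 15 of the 25 (60%, against 17.4% of all genes); the lysosomal membrane proteins Lamp1 and Lamp2 differed by 0.14 and 0.29 over the 4 arrays. Of 9 macrophage transcription factors, 4 had that order; Spi1, which encodes PU.1, read 5.36, 3.99 and 3.96 in IRF4 KO and 4.40, 3.93 and 4.56 in WT. Maf, a factor of mature macrophages, read 7.38, 5.11 and 4.49 in IRF4 KO and 5.35, 5.19 and 7.04 in WT. Among 10 ITAM signalling genes 6 had that order, with the kinase gene Syk at 5.63, 4.09 and 4.35 in IRF4 KO and 3.89, 4.17 and 5.03 in WT and the kinase gene Fgr between 5.10 and 5.94 in all arrays. Among 9 lipid-associated macrophage genes 5 did, but not Apoe or Cd9. Apoe, an apolipoprotein, read 11.02, 9.24 and 8.83 in IRF4 KO and 7.76, 8.74 and 9.07 in WT, and the tetraspanin Cd9 read 10.57 to 11.36 over all arrays. Csf1, a ligand of the receptor Csf1r, read 8.28, 7.39 and 7.20 in IRF4 KO and 7.06, 7.50 and 7.90 in WT, and its other ligand Il34 read 2.54 to 2.76 throughout. Of 8 resident and perivascular macrophage genes 1 had that order, with Lyve1 at 3.46 to 3.91 in IRF4 KO and 4.03 to 4.16 in WT and Folr2 at 4.69 to 5.01 in IRF4 KO and 4.45 to 4.66 in WT; neither overlapped between genotypes, and neither passed limma's test. Wider separations in these lists, named after their values were seen, were those of Mrc1 and Chil3. Of all genes, 3.31% read lower in IRF4 KO without overlap over the 6 arrays. The lists as a whole were mixed. Over the 4 arrays 6 resident genes were lower in IRF4 KO and 2 higher, and 2 monocyte genes were lower and 2 higher. Mrc1, the mannose receptor CD206, read 3.16, 3.10 and 3.30 in IRF4 KO and 4.28, 4.26 and 4.12 in WT. The groups did not overlap, and the difference was -1.03 (SE 0.18, limma adjusted p = 0.291). Of 4 monocyte genes 2 had IRF4 KO 1 and WT 3 on top; Ccr2, the monocyte chemokine receptor, did not (5.14 to 5.56 in IRF4 KO, 4.85 to 5.52 in WT), and Plac8 did (5.67, 3.22 and 3.73 in IRF4 KO, 3.52, 3.04 and 5.01 in WT). Chil3, the chitinase-like protein Ym1, read 2.69, 2.51 and 2.57 in IRF4 KO and 3.83, 3.86 and 3.61 in WT. Its difference was -1.18 without overlap (SE 0.18, limma adjusted p = 0.252), and both genes lay below the median of all gene means.

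Markers of other cell types were set beside the members. Cartilage genes had the same order most often, as 10 of 11 had IRF4 KO 1 and WT 3 on top, with list means of 2.52, -1.39 and -1.19 in IRF4 KO and -0.999, -1.39 and 2.45 in WT relative to their own averages. Acan, the cartilage proteoglycan, read 9.59, 5.96 and 5.29 in IRF4 KO and 6.19, 5.54 and 9.78 in WT. Of 9 osteoclast genes 3 had that order; the osteoclast protease Ctsk read 9.34, 6.28 and 6.29 in IRF4 KO and 6.18, 6.32 and 8.50 in WT, and the acid phosphatase Acp5 read 5.68, 2.86 and 3.04 in IRF4 KO and 2.93, 2.85 and 3.65 in WT. Of 8 neutrophil and marrow granule genes 2 did, and S100a8, a calcium-binding protein of neutrophils, read 4.42, 3.09 and 3.27 in IRF4 KO and 3.31, 3.36 and 7.27 in WT, its interaction term being -2.70 (limma adjusted p = 0.0479). S100a9, its partner, read 3.97, 2.66 and 3.06 in IRF4 KO and 3.41, 2.74 and 6.13 in WT. Lists of dendritic cells (2 of 7 genes in that order), T cells (1 of 6), B cells (1 of 6), mast cells (1 of 7), endothelium (2 of 7) and smooth muscle (0 of 9) were counted likewise. Their mean deviations lay between -0.195 and 0.466 in IRF4 KO and between -0.557 and 0.208 in WT apart from smooth muscle, which was at -0.102, 0.352 and 0.263 in IRF4 KO and at -0.166, -0.000131 and -0.346 in WT. Flt3, a growth factor receptor of dendritic cells and their precursors, read 5.19, 4.67 and 5.13 in IRF4 KO and 4.52, 4.33 and 4.56 in WT. It did not overlap between the genotypes, with a difference of 0.53 (SE 0.21, limma adjusted p = 0.999). Zbtb46, a dendritic cell transcription factor, overlapped (4.63 to 5.52 in IRF4 KO, 4.37 to 5.24 in WT). The T cell chain Cd3e read 5.19 to 5.57 in IRF4 KO and 5.01 to 5.25 in WT. Its partner Cd3d read 3.63 to 4.32 in IRF4 KO and 3.53 to 4.16 in WT, and the B cell receptor chains Cd79a and Cd79b read 3.01 to 3.69 in IRF4 KO and 2.95 to 3.47 in WT. These 4 lymphocyte genes overlapped between the genotypes. The mast cell receptor gene Kit read 4.49, 3.07 and 2.89 in IRF4 KO and 2.81, 2.63 and 4.15 in WT, while the mast cell protease Cpa3 read 3.21 to 3.85 in IRF4 KO and 3.25 to 3.46 in WT. The endothelial gene Pecam1 read 7.99 to 8.57 in IRF4 KO and 6.96 to 8.46 in WT. Cdh5, also endothelial, read 6.49 to 7.22 in IRF4 KO and 5.68 to 7.37 in WT, with IRF4 KO 1 and WT 3 on top. Over the 4 arrays Cdh5 was higher in IRF4 KO without overlap, as 14.1% of all genes were (0.65, SE 0.29, limma adjusted p = 0.999). The smooth muscle actin Acta2 read 13.84 to 13.92 in IRF4 KO and 12.62 to 12.84 in WT without overlap and without passing limma's test. The part that cartilage, bone or marrow tissue in the samples, the spike-in level or the composition of the pools had in the macrophage values was not tested.

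**Figure D5:**
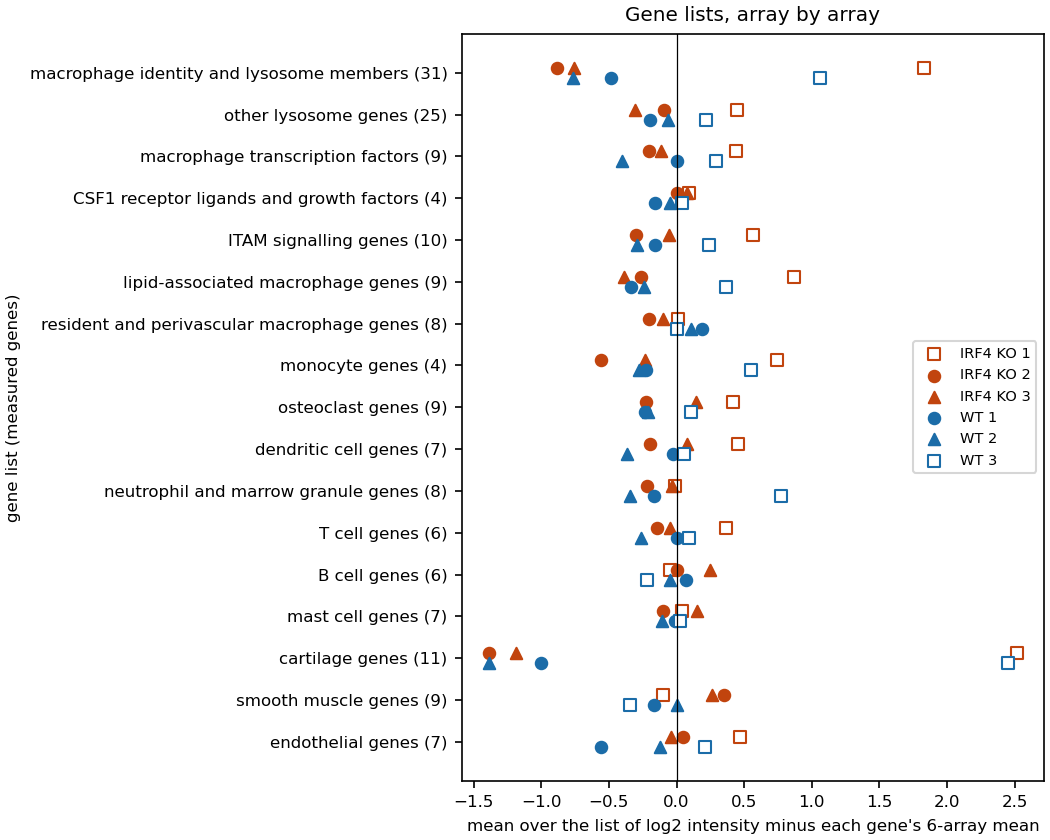
Mean over each list of the log2 intensity minus each gene's 6-array mean, for the 31 members (top) and 16 fixed lists (number of measured genes in brackets); orange, drawn above, is IRF4 KO and blue is WT, and open squares are IRF4 KO 1 and WT 3. The members and the cartilage list have their open squares at 1.06 or higher and all other arrays below 0.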

How the data were processed

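Per the submitters' processing notes, the authors ran RMA in Affymetrix Expression Console to obtain the deposited log2 probe set intensities. No software version is given in the sources used here. RMA understates differences of dim probe sets. Of 45101 probe sets, 34958 had 1 gene symbol in the platform annotation, and each of 18194 genes took its brightest probe set, with no filter. Members and lists were chosen with earlier results of these data known. All 31 members, the first 2 measured genes of each of the 16 lists and any that passed were named. Cd74, H2-Ab1, Xist, Dbp, Gusb, Lgmn, Mrc1 and Chil3 were added after their values were seen.

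Genotypes were compared by two-sided tests of limma (version 3.58.1, functions lmFit and eBayes, under R 4.3.3) over 6 arrays, over 4 arrays, and with a genotype by spike-in level interaction. p-values were adjusted across all 18194 genes by the method of Benjamini and Hochberg, with calls under 0.05, and the code was tested on simulated data. The p-values measure the spread between these arrays. Promoters came from RefSeq, GRCm38.p6. Alternatives covered probe set choice, dim genes, normalization, variance model, array weights, blocks and arrays left out.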

Additional observations from a re-analysis of the deposited data

Results flagged for a closer look

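The IRF4 KO minus WT difference of Ctss, the cathepsin S gene, passed limma's interaction test between the 2 arrays with low spike-in levels and the other 4. The change in the low spike-in arrays exceeded that in the other 4 by 3.92 log2 units (SE 0.63, adjusted p = 0.0479). IRF4 KO 1 read 2.20 above WT 3, while the other arrays differed by -1.72. Each genotype has 1 array with a low level, so the term rests on a single pair of arrays. Ctss has 1 probe set, so averaging probe sets changes its adjusted p only through the other genes. The adjusted p of limma was 0.102 with the mean of all probe sets, 0.263 without IRF4 KO 2 and 0.454 without IRF4 KO 3, so the call was lost in these fits.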

How the results depend on the processing

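Over 6 arrays no member passed limma's test under any alternative. All genes called were 0 in the 6-array fit, 24 with array weights and 5 without IRF4 KO 1 and WT 3. Array weights also moved the members' median difference to -0.0298, against 0.218. Uncalled differences changed sign in some settings. With the mean of all probe sets these were Csf1r (0.0752) and Coro1a (0.000577). With array weights they were Adgre1 (-0.0166), Msr1 (-0.0969), Ms4a6d (-0.0298), Clec4n (-0.305), Clec7a (-0.328), Ctsc (-0.153), Pld4 (-0.282) and Cd53 (-0.239). With the array median subtracted they were Clec4n (-0.00914) and Laptm5 (-0.0157), and with quantile normalization Clec4n (-0.0472). Without IRF4 KO 1 and WT 3 they were Cd68 (-0.252), Clec4n (-0.278), Clec7a (-0.0884), Ctsc (-0.00955), Pld4 (-0.0643), Cd53 (-0.00144) and Aif1 (-0.0975). Leaving out 1 array at a time gave both signs for 22 members, with these lowest and highest values: Csf1r -1.83 to 0.865, Adgre1 -0.583 to 1.24, Cd14 -0.303 to 1.75, Cd68 -1.17 to 1.13, Msr1 -0.00362 to 0.211, Ms4a7 -0.667 to 1.68, Ms4a6d -0.722 to 1.28, Fcgr3 -1.51 to 0.748, Fcer1g -2.08 to 0.399, Tyrobp -1.68 to 0.843, Clec4n -0.734 to 0.534. The others were Clec7a -0.669 to 0.862, Ctss -2.41 to 0.656, Ctsc -0.407 to 0.623, Laptm5 -0.283 to 0.361, Pld4 -0.724 to 0.749, Lyz2 -2.26 to 0.619, Ptprc -2.61 to 0.286, Cd53 -1.13 to 1.35, Coro1a -1.74 to 0.776, Lcp1 -0.385 to 1.05, Aif1 -0.74 to 1.04. The alternatives of the 4-array comparison and the arrays left out of the interaction were chosen after seeing the data. The 4-array comparison called 25 genes with trend and robust variances, of which 2 were members (Ctss and Ptprc), and 19 with dim genes left out, of which 1 was a member (Ctss). Leaving out 1 of its arrays gave 3 to 40 genes and 0 to 3 members, the 3 being Ctss, Lyz2 and Ptprc without WT 2. The interaction called 30 genes with trend and robust variances and 8 with the mean of all probe sets. With that mean 0 members passed, and Ctss, whose 1 probe set kept its values, had a limma adjusted p = 0.102. With dim genes left out 2 members passed the interaction, Ctss and Lyz2. Leaving out 1 array gave 5 to 40 genes and 0 to 3 members, with 0 without IRF4 KO 2 or IRF4 KO 3, 1 without WT 1 and 3 without WT 2 (Ctss, Lyz2 and Tyrobp). In each of these the cause was not tested. The filter on dim genes left 19 members. Deviations of same-numbered arrays had correlations of -0.516, 0.372 and -0.62, positive only for replicate 2. Higher ones joined arrays of unlike number, at 0.682 for WT 3 with IRF4 KO 1 and 0.589 for WT 1 with IRF4 KO 3. With the replicate number as a block limma called 0 genes and the members' median difference was 0.218. The number of arrays limits the precision, and 12 members lay in the dim range.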
